A study of Mus musculus with 2 samples.

Results

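The TNF, RANKL and osteoprotegerin axis was read here through 9 genes in the tibia of telomerase-deficient mice: the ligands Tnf and Tnfsf11 (RANKL), the receptors Tnfrsf1a, Tnfrsf1b and Tnfrsf11a (RANK), the decoy receptor Tnfrsf11b (osteoprotegerin), and the adaptors Traf2, Traf3 and Traf6. Members were taken by symbol from the array platform's probe annotation, which gave 17 of 45281 probes. These 17 probes belonged to 8 of the 9 genes, and Traf3 was not analysed here. One array held the Terc-/- pool, labelled G3 in the design text and lacking the RNA component of telomerase, and the other held the Terc+/+ pool. Both pools came from female C57BL/6 mice aged 22 weeks without treatment, and each was a mixture of tibia RNA from 3 mice. RNA was hybridised as biotin-labelled cRNA to an Illumina mouse bead array. With 1 array per genotype there is no replicate error and no test for any value, and precision is limited by having 2 arrays in all. The arrays had median intensities of 138 (Terc-/-) and 127 (Terc+/+), with 15363 and 16640 probes above background.

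TNF is an inflammatory cytokine, made as a membrane protein and released by cleavage, that signals through TNF receptor 1, present on most cells, and TNF receptor 2, found mainly on blood cells and endothelium. RANKL is its relative in bone: osteoblast-lineage cells, osteocytes and lymphocytes make it, and it binds RANK on osteoclast precursors to drive their differentiation. Osteoprotegerin is a soluble receptor, secreted largely by osteoblast-lineage cells, that binds RANKL and keeps it from RANK. TRAF adaptors carry the signal inside the cell, TRAF2 at TNF receptor complexes and TRAF6 at RANK, while TRAF3 restrains the alternative NF-kappaB pathway.

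The promoter sequences of the 3 genes with the largest differences, Tnf, Tnfrsf1a and Tnfrsf1b, are shown with that of Tnfsf11, the ligand that differed little, so that the regulatory sequence can be read beside the values. Each is the 250 bases before the gene's start in RefSeq (GRCm38.p6), written 5′ to 3′ on the gene's own strand. Capitals mark matches on either strand to TATAAA, to GAGGAA (the core bound by PU.1, a myeloid transcription factor), to GGGCGG (the GC box), to TGANTCA (the AP-1 site) or to the kappa-B consensus. They lie at chr17:35202008-35202257 (minus strand), chr6:125349473-125349722 (plus strand), chr4:145246871-145247120 (minus strand) and chr14:78308044-78308293 (minus strand).
Tnf: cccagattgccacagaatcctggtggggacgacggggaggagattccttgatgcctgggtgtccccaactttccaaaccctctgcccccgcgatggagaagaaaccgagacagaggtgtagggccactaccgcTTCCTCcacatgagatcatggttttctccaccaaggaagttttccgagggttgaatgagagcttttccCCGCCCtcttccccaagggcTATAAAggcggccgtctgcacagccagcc
Tnfrsf1a: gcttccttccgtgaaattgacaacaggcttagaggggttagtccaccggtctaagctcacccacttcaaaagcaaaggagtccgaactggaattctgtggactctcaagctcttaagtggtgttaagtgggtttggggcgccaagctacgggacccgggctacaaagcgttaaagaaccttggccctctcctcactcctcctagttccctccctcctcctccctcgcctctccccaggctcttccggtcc
Tnfrsf1b: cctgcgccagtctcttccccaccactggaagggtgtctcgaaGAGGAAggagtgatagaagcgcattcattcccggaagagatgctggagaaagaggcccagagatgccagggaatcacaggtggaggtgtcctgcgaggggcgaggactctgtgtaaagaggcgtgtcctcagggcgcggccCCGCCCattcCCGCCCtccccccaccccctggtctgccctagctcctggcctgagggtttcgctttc
Tnfsf11: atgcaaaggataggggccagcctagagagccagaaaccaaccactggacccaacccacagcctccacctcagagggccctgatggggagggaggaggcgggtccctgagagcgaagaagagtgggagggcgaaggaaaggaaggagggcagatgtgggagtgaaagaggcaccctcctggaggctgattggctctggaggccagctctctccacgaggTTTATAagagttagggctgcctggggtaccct

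In these windows Tnf held 1 TATAAA, at positions -29 to -24 counted back from the start, with 1 GAGGAA and 1 GGGCGG on the opposite strand. Tnfrsf1b held 1 GAGGAA and 2 GGGCGG matches and no TATAAA, and Tnfsf11 held only a TATAAA, on the opposite strand. Tnfrsf1a held none of the 5 motifs. No base lay in matches of different motifs. Over the windows of 27025 genes, TATAAA was present in 13%, GAGGAA in 23.1%, GGGCGG in 32.9%, TGANTCA in 6.87% and the kappa-B consensus in 7.01%. A match describes letters only, and these windows are too short to hold every regulatory site of a gene.

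TNF and its 2 receptors were higher in the Terc-/- pool, while RANKL, RANK and osteoprotegerin lay within 2-fold, all on the lower side. All 8 measured genes were above background on both arrays, that is, had at least 1 probe with a detection p under 0.01. Of the 8, 2 were at least 2-fold higher in Terc-/- (Tnf and Tnfrsf1b), none was 2-fold lower and 6 lay within 2-fold. Across all 9953 detected genes, 6.87% were past 2-fold on the higher side and 8.81% on the lower side. The 8 differences ran from -0.50 to 1.5 on the log2 scale (Terc-/- minus Terc+/+) with a median of 0.15, beside a median of 0.01 over all genes. The rule of 2-fold is one of size and not a test. In RNA from whole bone, a change in the number of cells of one type and a change in RNA per cell cannot be told apart.

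**Figure D1:**
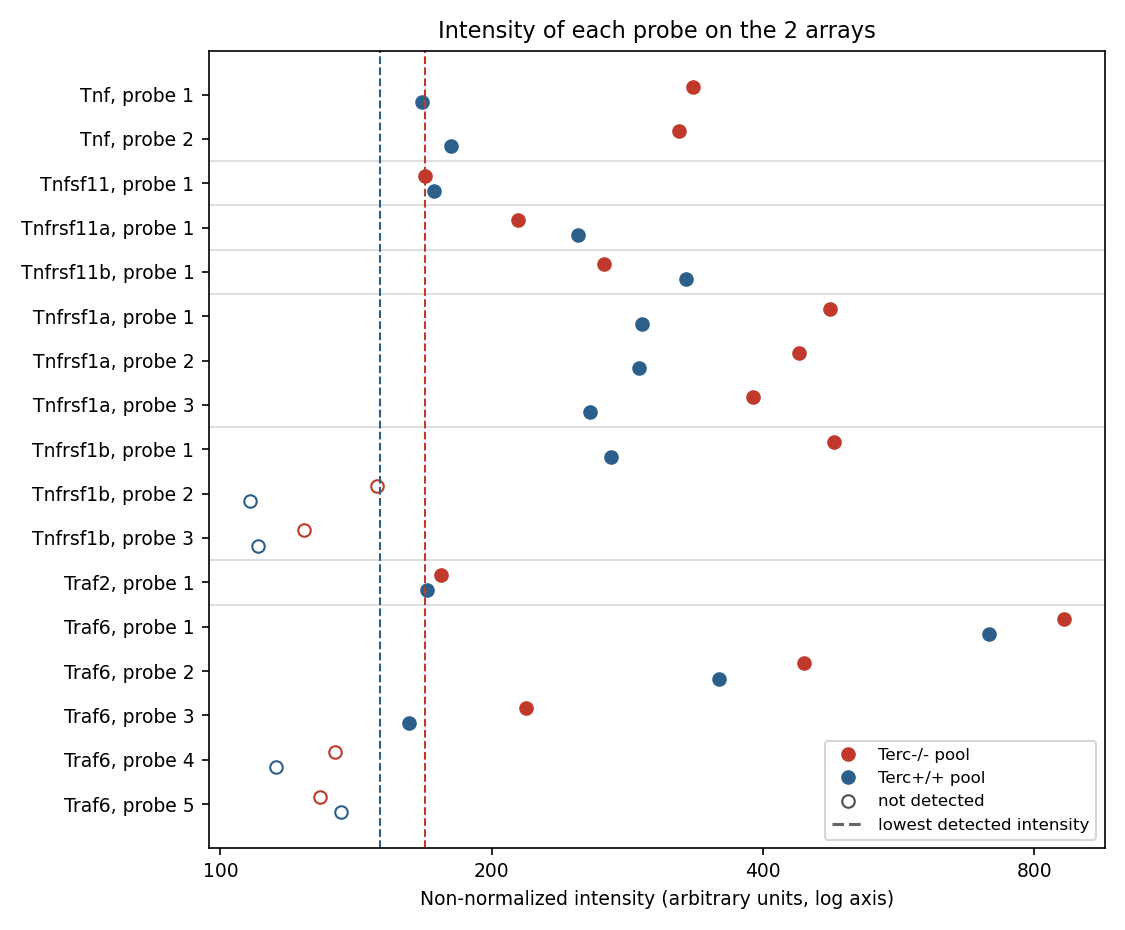
Non-normalized intensity (arbitrary units, log axis) of each of the 17 probes on the Terc-/- array (red) and the Terc+/+ array (blue); open circles were not above background, and dashed lines mark the lowest detected intensity, 168.5 on the Terc-/- array and 150.2 on the Terc+/+ array. Both Tnf probes, the 3 Tnfrsf1a probes and the detected Tnfrsf1b probe were brighter on the Terc-/- array, and the single probes of Tnfsf11, Tnfrsf11a and Tnfrsf11b were dimmer there.

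Of the ligands, Tnf (chromosome 17, 35199367 to 35202007) had 2 probes. The probe that represents the gene had an intensity of 323 on the Terc-/- array and 180 on the Terc+/+ array, and the other had 335 on the Terc-/- array and 167 on the Terc+/+ array. The signal was thus close to the lowest detected intensity (150.2) in Terc+/+ and well clear of it (168.5) in Terc-/-. After correction for background and normalization the 2 probes differed by 1.5 and 1.83 on the log2 scale, or 2.83-fold and 3.55-fold. The uncorrected intensities gave ratios of 1.79 and 2.0. Of all detected genes, 97.7% had a lower difference than Tnf.

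Tnfsf11 (chromosome 14, 78277446 to 78308043), which encodes the osteoclast-inducing ligand, had 1 probe, with an intensity of 168.8 on the Terc-/- array and 172.7 on the Terc+/+ array. On the Terc-/- array this was barely above background, with a detection p of 0.0096, against 0.0021 in Terc+/+. The normalized difference was -0.23, or 1.17-fold lower in Terc-/-. That size is below the median gap of 0.25 between the differences given by a gene's 2 brightest probes, over 2144 genes with probes in the members' range of levels.

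The receptors for TNF were higher in Terc-/- on every probe above background. Tnfrsf1a (chromosome 6, 125349723 to 125362483), TNF receptor 1 with its death domain, had 3 probes, all detected. Their intensities were 475, 439 and 390 on the Terc-/- array, against 293, 291 and 257 on the Terc+/+ array, so each probe was brighter in Terc-/-. The log2 differences were 0.94, 0.82 and 0.89, a range of 0.13, and the brightest probe gave 1.92-fold, just under 2-fold. This agreement between probes concerns the hybridisation of the same 2 pools and not the mice.

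Tnfrsf1b (chromosome 4, 145212368 to 145246870), TNF receptor 2, had 3 probes, of which 1 was above background. That probe had an intensity of 479 on the Terc-/- array and 271 on the Terc+/+ array, a log2 difference of 1.15 or 2.21-fold. The other 2 probes were below background on both arrays (149 and 124 in Terc-/-, against 108 and 110 in Terc+/+), so they give no second reading of the gene. With all 3 probes averaged, the difference was 0.65.

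Tnfrsf11a (chromosome 1, 105780673 to 105849444) encodes RANK, the receptor on osteoclast precursors. Its probe had an intensity of 214 on the Terc-/- array and 249 on the Terc+/+ array. The log2 difference was -0.44, or 1.36-fold lower in Terc-/-. Of all detected genes, 25.2% had a lower difference.

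Tnfrsf11b (chromosome 15, 54250619 to 54278484) encodes osteoprotegerin, the decoy. Its probe had an intensity of 266 on the Terc-/- array and 328 on the Terc+/+ array. The log2 difference of -0.50, or 1.41-fold lower, was the lowest of the 8 genes, and 23% of detected genes had a lower one. The balance between ligand and decoy is one control of osteoclast formation, so the 2 differences were also set against each other. The Tnfsf11 difference stood 0.27 above the Tnfrsf11b difference on the log2 scale, which corresponds to a ratio of RANKL to osteoprotegerin signal 1.21-fold higher in Terc-/-. That gap was of the size that separates 2 probes of a single gene (median 0.25). It lay between 0.20 and 0.30 under the alternatives tried, of which the detection rules and the averaging of probes could not alter it. The Tnfsf11 probe stood at the lowest detected intensity on the Terc-/- array (168.8 against 168.5). Its difference, and with it this ratio, is therefore poorly measured.

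Of the adaptors, Traf2 (chromosome 2, 25517982 to 25546940), which joins TNF receptor complexes, had 1 probe with an intensity of 175 on the Terc-/- array and 169 on the Terc+/+ array. Its log2 difference was 0.01, and it changed sign with another scaling (-0.060 and -0.067). Traf6 (chromosome 2, 101678420 to 101701668), the ubiquitin ligase that RANK and toll-like receptors use, had 5 probes, of which 3 were detected. Its brightest probe had an intensity of 864 on the Terc-/- array and 713 on the Terc+/+ array, and the next had 445 on the Terc-/- array and 358 on the Terc+/+ array. The third had 218 on the Terc-/- array and 162 on the Terc+/+ array. These probes were 0.28, 0.40 and 0.91 higher in Terc-/- on the log2 scale, so they shared a direction but spread over 0.62, with the dimmest giving the largest value. The 2 undetected probes differed by 0.17 and -0.47, which carries no reading of the gene.

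**Figure D2:**
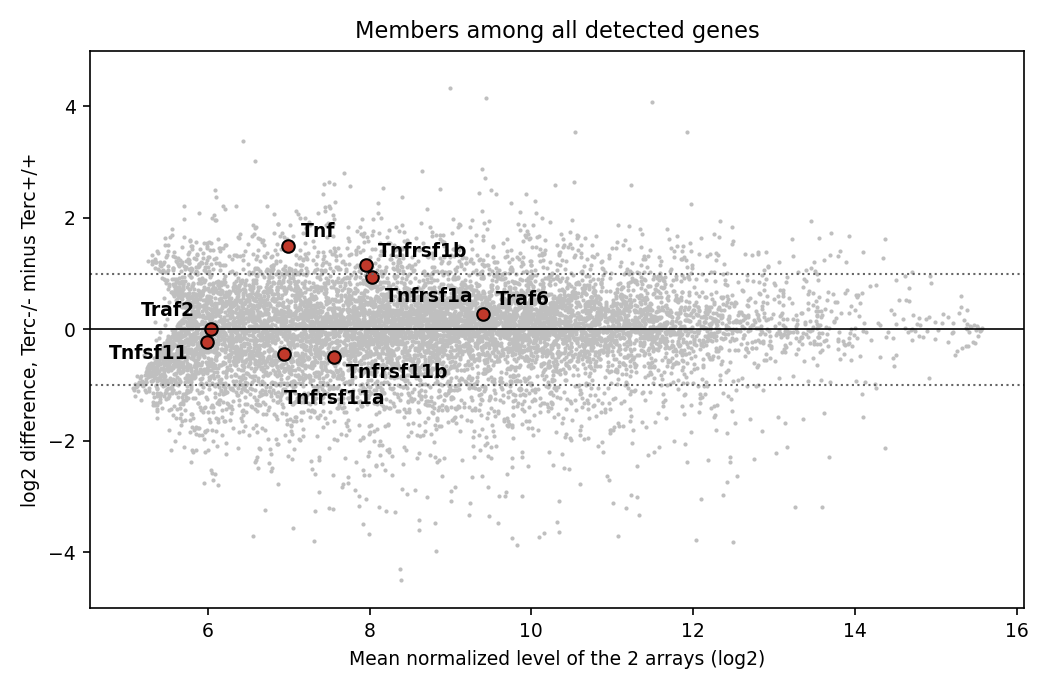
Log2 difference (Terc-/- minus Terc+/+) of 9953 detected genes (grey) against their mean normalized log2 level on the 2 arrays, with the 8 measured genes of the axis in red and dotted lines at 2-fold. Tnf and Tnfrsf1b lie above the upper line, Tnfrsf1a just under it, and Tnfsf11 and Traf2 at the dim end of the range near 0.

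Technical spread was read from the gap between probes of the same gene. Probes below background on both arrays (detection p at least 0.1), 22253 in number, gave an SD of 0.17 for their log2 difference. They were taken for low signal on both arrays, so that SD does not describe the spread of detected probes. Over those 2144 genes, the 95th percentile of the gap was 0.855 on the log2 scale, and the 2 probes disagreed in sign for 22.9%. The differences of Tnf, Tnfrsf1b and Tnfrsf1a, 3 of the 8 genes, exceeded 0.855. Those of Tnfrsf11b, Tnfrsf11a and Traf6 lay between the median gap and that value, and those of Tnfsf11 and Traf2 were below the median gap. Many other genes exceeded 0.855 as well, though their share at that exact limit was not computed. At 1.5-fold, a looser limit, 17% of all detected genes were past it on the higher side and 17% on the lower side. At 2-fold, a stricter limit, the shares were 6.87% on the higher side and 8.81% on the lower side. The spread between mice was not measured, because the 3 animals of each genotype were mixed.

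The size of the TNF differences depended on the treatment of background, while their direction did not. With the background left in, Tnf was at 0.82, Tnfrsf1b at 0.80 and Tnfrsf1a at 0.67 on the log2 scale, and none of the 8 genes reached 2-fold. In that setting 3.57% of all genes were at least 2-fold higher. Tnf ranged from 0.82 to 1.66 over all settings, Tnfrsf1a from 0.67 to 0.99 and Tnfrsf1b from 0.65 to 1.19. Tnfrsf11a ranged from -0.54 to -0.24 and Tnfrsf11b from -0.59 to -0.32.

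**Figure D3:**
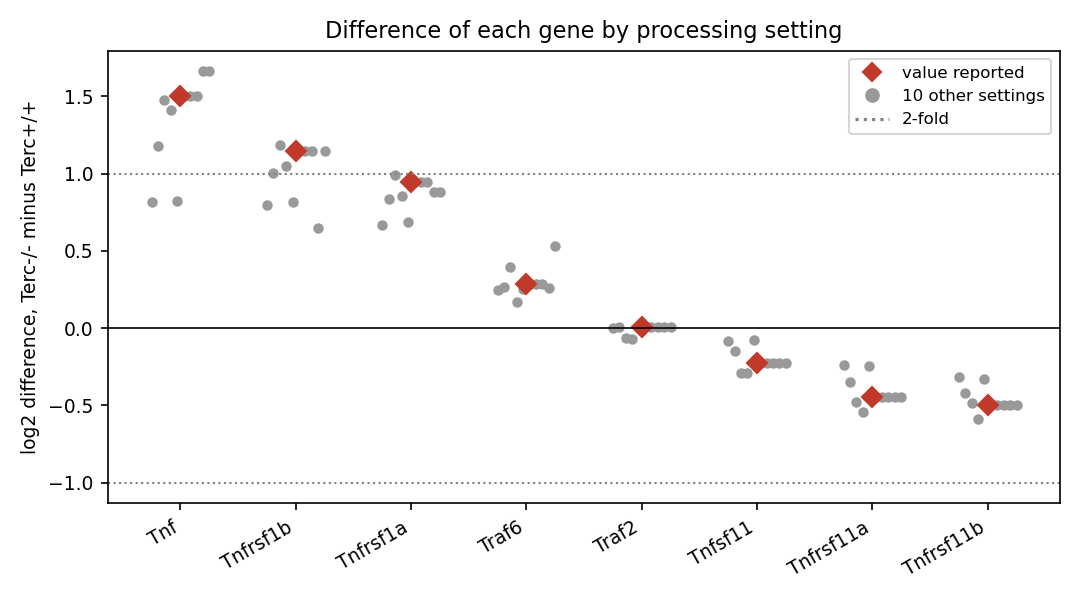
Log2 difference (Terc-/- minus Terc+/+) of each measured gene as reported (red diamonds) and under 10 other processing settings (grey circles), with dotted lines at 2-fold. Tnf, Tnfrsf1b, Tnfrsf1a and Traf6 are above 0 and Tnfsf11, Tnfrsf11a and Tnfrsf11b below 0 in every setting shown, and Traf2 stays within 0.07 of 0. Settings that change only the detection rule could not alter any value.

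Cell markers that could carry these transcripts also differed between the pools. The counts of marker genes past 2-fold, here and in the next 2 paragraphs, stand beside 6.87% higher and 8.81% lower of all genes. None was tested against those shares. Of 11 neutrophil markers with a probe, all were detected and 4 were at least 2-fold higher in Terc-/- (none lower). The median of the 11 differences was 0.84 on the log2 scale. Their summed normalized level was 310300 in Terc-/- and 246000 in Terc+/+, a sum weighted toward the brightest genes. Probes of some of these genes disagreed: the 4 detected Mpo probes ranged from 0.17 to 1.99 and the 2 Ltf probes from -0.23 to 0.86. Of 11 monocyte and macrophage markers, all detected, 2 were higher (Cd14 at 1.73 and Ccr2 at 1.57) and 5 lower (C1qb at -1.32, Cx3cr1 at -1.31, Mrc1 at -1.15, C1qc at -1.06 and C1qa at -1.0), with sums of 11060 in Terc-/- and 19150 in Terc+/+. Monocytes, macrophages and neutrophils all make Tnf and its receptors. The part of these cells in the Tnf, Tnfrsf1a and Tnfrsf1b differences was not tested.

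Many markers of the cells that make RANKL and osteoprotegerin were lower in Terc-/-. All 8 detected markers of osteoblasts and matrix were at least 2-fold lower, with summed levels of 12860 in Terc-/- and 63440 in Terc+/+ and a median of -1.76 on the log2 scale. Dmp1 was not above background. Of 6 osteocyte markers 3 were detected and 1 was lower, Phex, which is also among the 8 osteoblast and matrix markers, while Mepe was at 0.24. The osteocyte sums were 587 in Terc-/- and 1072 in Terc+/+, and Dmp1, Fgf23 and Sost were not above background. Of 4 detected stromal markers 2 were lower (sums of 19570 in Terc-/- and 34870 in Terc+/+), while Kitl and Lepr were not above background. Of 4 detected T-lymphocyte markers 3 were lower (360 in Terc-/- and 884 in Terc+/+; Cd28 and Cd8a not above background). Of 5 detected B-lymphocyte markers 4 were lower (1461 in Terc-/- and 6407 in Terc+/+; Pax5 not above background). The Tnfsf11 and Tnfrsf11b differences of -0.23 and -0.50 were smaller in size than the osteoblast median. The Tnfsf11 probe, however, lay near the lowest detected intensity: 168.8 against 168.5 in Terc-/- and 172.7 against 150.2 in Terc+/+. A drop as large as the osteoblast median could not have been read from it, so for Tnfsf11 the comparison decides nothing. The part of these cells in the Tnfsf11 and Tnfrsf11b differences was not tested.

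Osteoclast markers, the cells on which RANK acts, were within 2-fold for all 8 that were detected, of 12. Their summed level was 37270 in Terc-/- and 29470 in Terc+/+, with a median of 0.14. Mmp9, which neutrophils also express, gave 18950 in Terc-/- and 12030 in Terc+/+ of these sums. Without it, a check added after seeing the data, the sums were 18320 in Terc-/- and 17440 in Terc+/+. Ctsk was at -0.14, Acp5 at -0.58 and Dcstamp at -0.24. The other detected markers were on the higher side: Tcirg1 at 0.84, Mmp9 at 0.66, Ostm1 at 0.37, Oscar at 0.18 and Clcn7 at 0.11. Atp6v0d2, Calcr, Itgb3 and Ocstamp were not above background. Other tissue was also present in the pools. Of 6 detected chondrocyte markers 5 were lower (sums of 4296 in Terc-/- and 12680 in Terc+/+; Matn3 not above background), and of 6 skeletal muscle markers 2 were lower (26350 in Terc-/- and 63330 in Terc+/+). Terc itself was not above background on either array, with intensities of 112.2 in Terc-/- and 111.9 in Terc+/+, so the genotype has no check here.

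The wider pathway was followed in 148 genes from 9 lists, of which 109 were detected. Past 2-fold, 13 (11.9%) were higher in Terc-/- and 5 (4.59%) lower, beside 6.87% and 8.81% of all genes. The lists were chosen with earlier results of these data known, so these shares are a description and not a test. With no background correction, 3.67% of the listed genes were higher, beside 3.57% of all genes, so the higher share was then near that of all genes. In the deposited normalized values the share was 3.67%, beside 3.64% of all genes. The split was 19 higher and 4 lower when the arrays were scaled to a common median, a scaling that moved the median of all genes to 0.13 on the log2 scale. Over the 97 listed genes detected on both arrays the median was 0.26, beside 0.05 over 8781 such genes. Several of the listed genes are also marker genes of the cells above. The counts of single lists below stand beside the same shares of all genes, 6.87% higher and 8.81% lower, and none was tested against them.

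Among the other TNF superfamily ligands, none of 5 detected genes passed 2-fold. Tnfsf14 (LIGHT, which binds the lymphotoxin-beta receptor) had an intensity of 1064 on the Terc-/- array and 594 on the Terc+/+ array, a log2 difference of 0.91. Ltb, lymphotoxin beta, was at 0.36 and Tnfsf10 (TRAIL, a death-inducing ligand) at 0.09. For Tnfsf8 (CD30 ligand) only the Terc+/+ array was above background.

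Other receptors of the family went both ways: of 19 detected, 4 were higher and 3 lower past 2-fold, and the median over the 14 detected on both arrays was 0.46. Over all 19 it was 0.05, so it depends on 5 genes detected on 1 array. Tnfrsf26 had an intensity of 333 on the Terc-/- array and 164 on the Terc+/+ array, 3.69-fold higher. Tnfrsf22, a decoy receptor for TRAIL in mice, was 2.23-fold higher, although its 3 detected probes ranged from 0.07 to 1.16 on the log2 scale. Both sit in a cluster of close copies whose probes may share signal. Ltbr, the lymphotoxin-beta receptor, was 2.22-fold higher. Relt, detected on the Terc-/- array alone, was at least 2.09-fold higher there, a bound taken against the lowest detected signal in Terc+/+.

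The 3 lower receptors were Tnfrsf13c, the BAFF receptor of B cells, 3.97-fold lower with intensities of 180 in Terc-/- and 385 in Terc+/+, Tnfrsf19, 2.60-fold lower, and Cd40, a costimulatory receptor of B cells and macrophages, 2.34-fold lower. B-lymphocyte markers were lower in the same comparison, by a median of -1.89 on the log2 scale over the 4 detected on both arrays. Other family receptors that B-lineage cells carry were not all lower: Tnfrsf13b was at 0.87 and Cd27 at 0.06. Tnfrsf17 was above background on the Terc+/+ array alone, too close to it to give a fold. The part of B cells in these values was not tested. With the background left in, none of the family's receptors was 2-fold higher and 1 was 2-fold lower, Tnfrsf13c at 2.19-fold. Tnfrsf26 was then 1.98-fold higher.

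Of 7 other TRAF genes detected, 1 passed 2-fold. Traf4, a TRAF expressed in epithelial and skeletal development, had intensities of 173 on the Terc-/- array and 362 on the Terc+/+ array and was 4.02-fold lower. Its 2 probes differed by -2.01 and -1.71, and with the background left in it was 2.13-fold lower. Traf7 was at 0.58 and Tank, a TRAF-binding inhibitor, at 0.57, while Traf3ip2, an adaptor of interleukin-17 receptors, had signal above background on the Terc+/+ array alone, which puts it at least 1.22-fold lower in Terc-/-.

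Inside the cell, the genes of the TNF receptor complexes had a median difference of 0.51 on the log2 scale. All 24 with a probe were detected, and 2-fold was passed by 1 upward and by 1 downward. Ripk3, the kinase of necroptosis, was 2.07-fold higher, and Mlkl, its pore-forming substrate, was at 0.84. Birc3, a ubiquitin ligase that TRAF2 brings to the receptor, was at 0.80. Tab3, an adaptor of the kinase TAK1, was 2.02-fold lower, with intensities of 469 in Terc-/- and 820 in Terc+/+. Ripk3 and Tab3 stood just past 2-fold, and neither passed it with the background left in.

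Release of TNF from the cell requires the protease ADAM17, which iRhom proteins carry to the surface. Of 6 detected genes of this step 1 passed 2-fold, Rhbdf2 (iRhom2, the form used by myeloid cells), which had an intensity of 262 on the Terc-/- array and 156 on the Terc+/+ array and was 2.89-fold higher. With the background left in it was 1.63-fold higher and the list had no gene past 2-fold. Timp3, the inhibitor of ADAM17, was at -0.88, Rhbdf1 at -0.39 and Frmd8, which stabilises iRhoms, at 0.26, with a further probe at 1.13. The list's median was -0.08 and its mean 0.06.

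Of 11 detected genes that control TNF messenger RNA, 1 passed 2-fold upward and none downward. The median over the 10 detected on both arrays was -0.17, while the mean over all 11 was 0.08. Zc3h12a (regnase-1, an RNase that degrades inflammatory transcripts) was 2.03-fold higher, just past 2-fold. It was 1.53-fold higher with the background left in and 1.9-fold with cyclic loess, while median scaling put 3 genes of the list past 2-fold. Zfp36 (tristetraprolin, which destabilises Tnf RNA) was at 0.86 and Mapkapk2, the kinase that inactivates it, at 0.88. Zfp36l1, a relative of Zfp36, was at -0.59.

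Among genes of RANK signalling and osteoclast differentiation, 2-fold was passed upward by 2 of 15 detected genes and downward by none, and the median was 0.18. Fos, the AP-1 subunit needed for osteoclasts, had an intensity of 1961 on the Terc-/- array and 374 on the Terc+/+ array and was 6.55-fold higher. Spi1 (PU.1, a factor of all myeloid cells, acting before RANK in that lineage) was 2.49-fold higher. Bcl6, a repressor that holds back osteoclast genes, was at 0.67 and Src, the kinase of the osteoclast's ruffled border, at -0.92. Neutrophils and monocytes also express Fos, Spi1 and Bcl6, and the part of those cells was not tested.

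Among regulators of RANKL and osteoprotegerin, 2-fold was passed upward by 1 of 11 detected genes and downward by none, beside 6.87% and 8.81% of all genes. The median over the 9 detected on both arrays was -0.18. Ptger2, a receptor for prostaglandin E2, was 2.23-fold higher, with intensities of 276 in Terc-/- and 179 in Terc+/+. With the background left in it was 1.51-fold higher and with an offset of 50 it was 1.85-fold, so the list then had no gene past 2-fold. Pth1r, the parathyroid hormone receptor of osteoblasts, was at -0.86. Ebf2, a factor that raises osteoprotegerin, and Wnt16, a Wnt that induces it, reached the detection threshold on the Terc+/+ array alone, too close to it to give a fold.

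Of 11 detected genes that TNF is known to induce, 3 passed 2-fold upward and none downward. The median was 0.62 over the 9 detected on both arrays, near the 0.51 of the receptor complex genes. Junb was 3.98-fold higher (intensities of 2455 in Terc-/- and 661 in Terc+/+), Ier3, an early survival gene, 3.25-fold higher, and Nfkbia, the NF-kappaB inhibitor, 2.10-fold higher, with a second probe at 1.31. With the background left in Nfkbia was at 1.96-fold, under 2-fold, while Junb and Ier3 stayed past it. The neutrophil chemokines Cxcl2 and Cxcl1 were detected on the Terc-/- array alone. The bound was at least 1.83-fold higher for Cxcl2 and at least 1.31-fold higher for Cxcl1. Against these, Vcam1 was at -0.77 and Sod2 at -0.60, and Ccl2, Csf2 and Il6 were not above background. Many stimuli other than TNF induce the same genes, and no value here separates them.

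**Figure D4:**
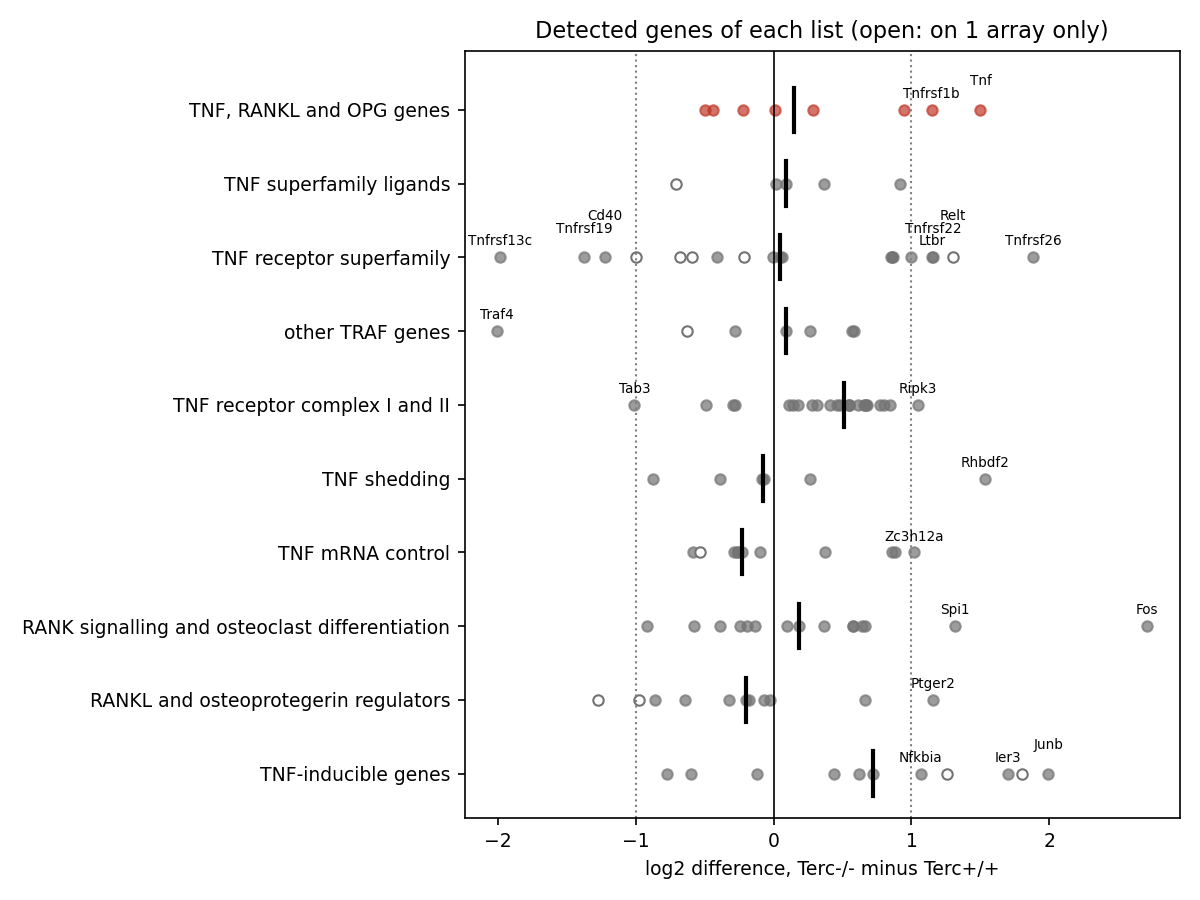
Log2 difference (Terc-/- minus Terc+/+) of the 8 measured genes of the axis (red) and of the detected genes of 9 pathway lists (grey); black bars are list medians, dotted lines mark 2-fold, and open circles are genes above background on 1 array only, plotted at their normalized difference and counted in the bars. Labels name the genes past 2-fold, taking the bound for genes detected on 1 array.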

How the data were processed

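The authors deposited 2 tables covering 45281 probes on 2 arrays: one, per the file headers, with non-normalized intensity beside a detection p-value, the other with a normalized intensity whose method no source used here states. Starting from the first, each array's background was modelled through its detection p-values and removed by normexp (limma 3.58.1, function nec, offset 16, R 4.3.3). The arrays were then quantile normalized and put on the log2 scale. The procedure was tested on simulated data. Of all probes, 34885 had 1 gene symbol in the platform annotation, 18 carried several and 10378 none here. Both of the last kinds were left out. A gene took the probe with the highest mean level, and counted as detected with a detection p under 0.01 for any probe on at least 1 array. Differences are Terc-/- minus Terc+/+, and 2-fold is a rule of size. Where a gene was detected on 1 array only, the fold is a bound, set against whichever is higher on the undetected array, its lowest detected signal or the gene's value. The members, the 9 pathway lists and the marker lists were chosen with earlier results of these data known. Genes named are the members, up to 4 genes of each pathway list with the largest absolute difference, every listed gene past 2-fold and Terc. Marker genes, Vcam1, Sod2, Tnfrsf13b, Cd27, Tnfrsf17 and the list genes said to be below background were named outside that rule, after their values were seen. Likeness of pattern was not computed, since 2 arrays allow none. Figures were drawn with matplotlib 3.10.9.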

Additional observations from a re-analysis of the deposited data

How the results depend on the processing

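No paired analysis was possible because each genotype has 1 array. Of 80 member differences recomputed under 10 settings, 73 kept their direction and their side of 2-fold. Part of this was fixed in advance. All 8 genes were detected on both arrays, so a change of the detection rule alone could not alter a value. Averaging probes could not alter the genes with 1 probe, Tnfsf11, Tnfrsf11a, Tnfrsf11b and Traf2. Without background correction Tnf was at 0.82 and Tnfrsf1b at 0.80, and in the deposited normalized values they were at 0.83 and 0.82. Tnfrsf1b was at 0.65 with all probes averaged, and Traf2 at -0.060 with median scaling and -0.067 with cyclic loess. The members at least 2-fold higher, 2 as reported, were 0 without background correction, 0 in the deposited values, 1 with all probes averaged and 0 at 3-fold. The cause was not tested, apart from the 3-fold rule, which is stricter by construction. Of the pathway genes, 13 were higher as reported, against 4 without background correction, 7 with an offset of 50, 4 in the deposited values, 34 at 1.5-fold and 4 at 3-fold. The 5 lower were 2 without background correction, 2 in the deposited values, 2 with all probes averaged, 12 at 1.5-fold and 2 at 3-fold. Over all genes, 684 were higher and 877 lower as reported, 355 and 487 without background correction, 362 and 506 in the deposited values, 1689 and 1691 at 1.5-fold and 175 and 305 at 3-fold. The lower counts were 579 with all probes averaged. Of 120 recomputed counts of single lists whose reported count was above 0, 77 stayed within 1.5 times; 96 more had a reported count of 0. Signal over background limits Tnfsf11, Traf2 and Tnf in Terc+/+.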
